A study of Mus musculus with 15 samples.

Results

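The genes described here are 37 genes of fatty acid oxidation and the peroxisome in the mouse brain, taken by symbol from a count table of 32735 named genes. No rule on their measured values was used, but the list was chosen with earlier results of these data known. All 37 were found, and all 37 were among the 16302 genes with enough reads to be tested. Fatty acids are bound in the cell by small carrier proteins, joined to coenzyme A by acyl-CoA synthetases, and carried into mitochondria by a shuttle that uses carnitine, where repeated rounds of dehydrogenation, hydration, oxidation and cleavage release acetyl-CoA. Peroxisomes shorten very long and branched chains by a related set of enzymes. In the brain, astrocytes are known as the main cells that oxidise fatty acids, and the pathway is studied in neural stem cells for its part in quiescence.

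Poly(A) RNA was sequenced from 5 cell populations that flow cytometry separated from brains of hGFAP::GFP mice, whose GFP is driven by a human GFAP promoter. All 5 were gated as GFP-positive and drawn from males and females pooled, of an age not given in the labels. The first 4 came from the V-SVZ (ventricular-subventricular zone, where neural stem cells persist along the lateral ventricles) and were all CD24-negative. GCEPB+ was gated as positive for PDGFRβ, CD133 and EGFR. GCEPB- was CD133-positive and EGFR-positive but PDGFRβ-negative. GCPB+ was PDGFRβ-positive and CD133-positive but EGFR-negative. GPB+ was PDGFRβ-positive but negative for CD133 and EGFR. CTX, the outgroup, was GFP-positive astrocytes of the cortex. EGFR is used as a surface marker of activated stem cells and their dividing progeny, CD133 of stem cells that contact the ventricle, and CD24 of neuroblasts and ependymal cells. Each group had 3 libraries. Whether different animals or sorts gave them is not in the labels, and every p-value therefore rests on a spread between libraries that may be technical. Levels are CPM, counts scaled to a common library size with TMM factors, unless stated as FPKM, the length-scaled values that the authors deposited. The FPKM scale raised log2 fold changes against GCPB+ by a median over all genes of 0.25 in GCEPB+ and 0.28 in GCEPB-. Sums in FPKM can therefore order the groups differently from CPM.

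Library depth was 12466038 to 33665687 counts. Egfr measured 455 to 602 CPM in GCEPB+ and 765 to 852 CPM in GCEPB-, against 105 to 209.8 CPM in GCPB+. Pdgfrb measured 32.6 to 66.6 CPM in GCEPB+, against 1.17 to 3.17 CPM in the PDGFRβ-negative GCEPB- cells and 296 to 417 CPM in GCPB+. Prom1, which codes for CD133, averaged 153 ± 24.6 CPM in GCPB+, against 28.4 ± 5.47 CPM in GPB+. In GCEPB+ and GCEPB-, also gated as CD133-positive, it averaged 66.7 ± 25.1 and 48.8 ± 7.33 CPM, near the 56.0 ± 18.9 CPM of CTX. Gfap itself averaged 188 ± 92.4 CPM in GCEPB+, 210.3 ± 58.8 CPM in GCPB+, 121 ± 33.6 CPM in GPB+ and 38.7 ± 15.4 CPM in CTX (SD, n = 3 each), and was at 7.20 to 13.96 CPM in GCEPB-. The 9 astrocyte markers examined (among them Aqp4, Slc1a3 and Aldoc) summed to 9820 to 16600 CPM in GCEPB+ and 3510 to 3840 CPM in GCEPB-, against 58900 to 68800 CPM in GCPB+, 49500 to 59600 CPM in GPB+ and 44900 to 53900 CPM in CTX. The 7 markers of transit-amplifying and cycling cells (among them Mki67, Top2a and Mcm2) summed to 3690 to 4480 CPM in GCEPB+ and 6510 to 7740 CPM in GCEPB-, against 130 to 190 CPM in GCPB+, 103 to 163 CPM in GPB+ and 124 to 151 CPM in CTX. GCEPB+ replicate 1 differed from its group in marker sums, with the lowest astrocyte sum of its group, 9820 CPM, and an oligodendrocyte marker sum of 61.2 CPM, against 749 and 524 CPM in replicates 2 and 3.

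The 37 genes were mostly low in the cells with EGFR. Of the 37, 23 were lower and 2 (Acsl5 and Fabp7) higher in GCEPB+ than in GCPB+ (edgeR's quasi-likelihood test, adjusted p under 0.05). Over all genes tested, 18% were lower and 18.1% higher in that comparison. Between GCEPB- and GCPB+, 30 of the 37 were lower and the same 2 genes higher, beside 24.9% lower and 23.9% higher over all genes. The median log2 fold change of the 37 was -0.77 in GCEPB+ and -1.15 in GCEPB-, each against GCPB+, beside medians of 0.11 and 0.06 over all genes, and 14 and 27 of the 37 were called lower by more than 2-fold. Without GCEPB+ replicate 1, 21 of the 37 were lower in GCEPB+ than in GCPB+. In bulk RNA, fewer cells of a type and less RNA per cell cannot be told apart. The astrocyte markers moved the same way, with 9 of 9 lower in GCEPB+ and 9 of 9 lower in GCEPB-, each against GCPB+, while the cycling markers were higher in 7 of 7 and 7 of 7. Their part in the members' differences was not tested.

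The 2 populations with EGFR differed as well. Between GCEPB+ and GCEPB-, 13 of the 37 genes were higher in GCEPB+ and 0 lower, with a median log2 fold change of 0.58 against 0.03 over all genes, of which 9.28% were higher and 1.85% lower. Without GCEPB+ replicate 1 the count was 15. Of the 9 astrocyte markers, 8 were higher in GCEPB+ than in GCEPB-, and 1 of 7 cycling markers, Ccnd2, was lower. Their part in the difference was not tested. A test for any difference among the 5 groups called 32 of the 37, beside 54.8% of all genes. The remaining 5 were Acsl1, Acsl4, Etfa, Etfdh and Fabp5. The GCEPB+ mean lay between those of GCEPB- and GCPB+ for 33 of the 37 genes, and the lowest of the 5 group means was that of GCEPB- for 30. The highest mean was in GCPB+ for 22 genes, in CTX for 10, in GPB+ for 2, in GCEPB+ for 2 and in GCEPB- for 1. These orders of the means were not counted over all genes. The comparisons share libraries and are not independent of each other.

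**Figure D1:**
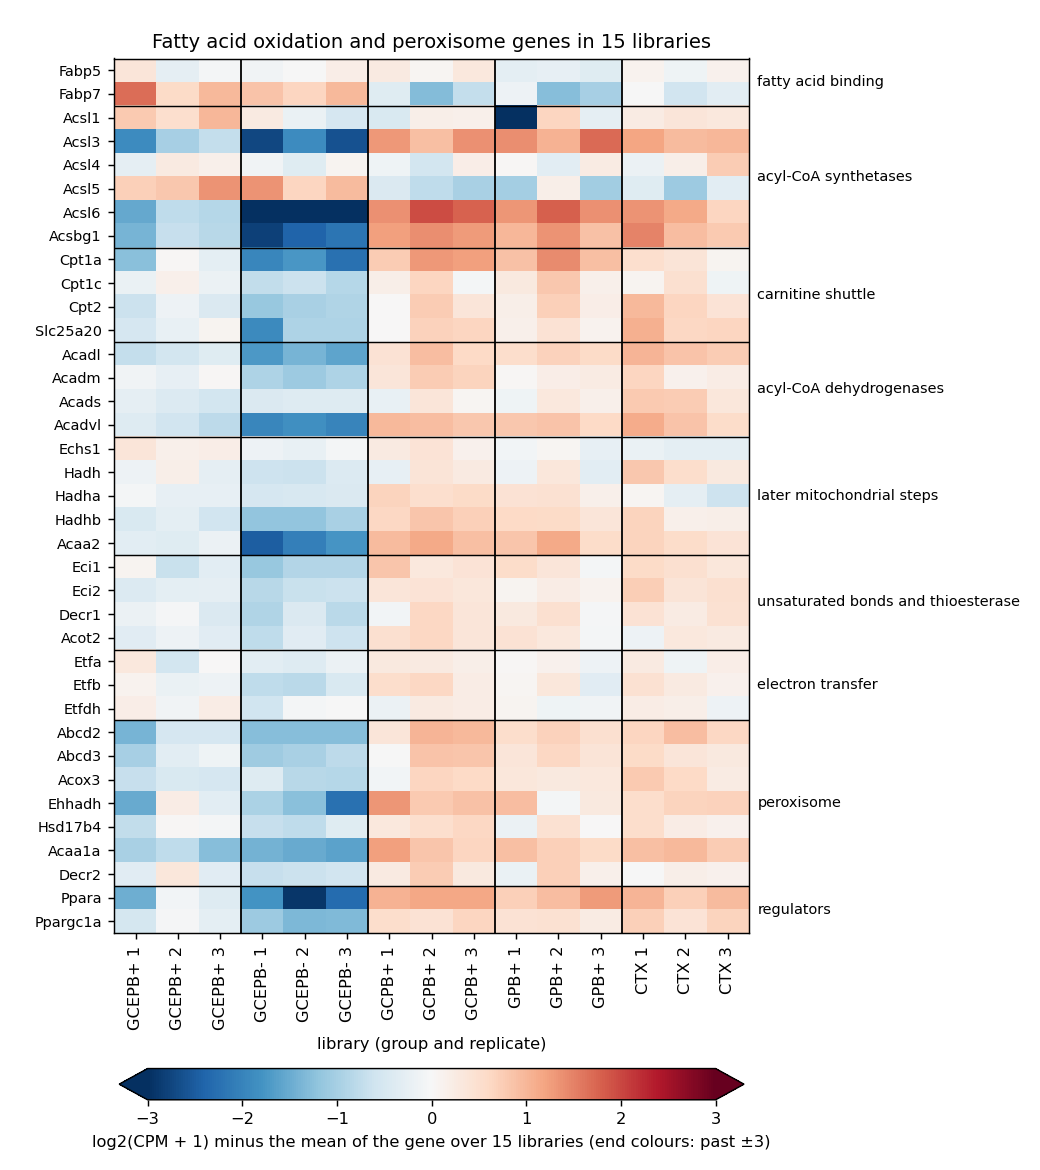
Levels of the 37 genes in the 15 libraries, as log2(CPM + 1) minus the mean of each gene over all libraries; rows are grouped by role and columns by population. Most rows are pale blue in GCEPB+, darker blue in GCEPB- and red in GCPB+, GPB+ and CTX, while Fabp7 and Acsl5 are red in GCEPB+ and GCEPB-. The dark cell of Acsl1 is the GPB+ library with 1 read of it.

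Promoter windows of 250 bases before to 50 bases after the annotated start were read for the members from RefSeq (GRCm38.p6, the same assembly as mm10), to see what sequence the genes share. A window was found for 32 of the 37, and 36 windows in all, since some genes have more than 1 start. The GC box GGGCGG, read on both strands, was in 25 of the 36 windows, 69.4%, beside 35.7% of the 32851 windows of all genes. These 25 windows belonged to 23 members and are not all separate. The windows of Hadha and Hadhb overlap, and the match in Hadha is the same site as the Hadhb match 90 bases before its start. The windows of all genes were not limited to genes tested here, while all members were tested, so the sets are unlike. The GC box and CCAAT motifs were added after the values were seen. The GC box on the other strand reads CCGCCC, as in Cpt1a below. CCAAT was in 47.2% of the member windows, beside 37.4% of all. CAAAGGTCA, the core of the site bound by PPAR receptors, was in 0 of 36 windows, beside 0.478% of all. TCAAGGTCA, the site of estrogen related receptors, was in 1 window, 2.78% beside 0.423% of all, and CATGCGCA, part of the nuclear respiratory factor 1 site, was in 2, 5.56% beside 2.12% of all. The PPAR and estrogen related receptor motifs end in the same AAGGTCA. Matches of letters are a description of these windows and not of binding. The stretches below lie upstream of the start, with matches to these motifs in capitals. They are shown because Acsl6 had the widest fall among the members, Cpt1a codes for the gate to the mitochondrial pathway, the Hadhb stretch lies between the starts of Hadhb and Hadha, and Acadm and Etfdh hold the respiratory factor motif.
Acsl6, chr11:54303624-54303723, plus strand, 200 to 101 bases before the start: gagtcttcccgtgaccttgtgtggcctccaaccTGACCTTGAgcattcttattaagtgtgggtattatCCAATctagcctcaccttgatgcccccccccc
Cpt1a, chr19:3323181-3323280, plus strand, 120 to 21 bases before the start: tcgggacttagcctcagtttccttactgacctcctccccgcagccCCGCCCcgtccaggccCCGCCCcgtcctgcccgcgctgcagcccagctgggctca
Hadhb, chr5:30155043-30155192, plus strand, 210 to 61 bases before the start: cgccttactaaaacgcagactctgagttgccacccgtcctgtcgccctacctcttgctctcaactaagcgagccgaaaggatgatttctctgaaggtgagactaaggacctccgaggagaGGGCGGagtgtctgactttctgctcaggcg
Acadm, chr3:153944744-153944843, minus strand, 200 to 101 bases before the start: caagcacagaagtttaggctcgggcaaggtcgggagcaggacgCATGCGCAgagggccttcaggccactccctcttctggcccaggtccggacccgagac
Etfdh, chr3:79628868-79628967, minus strand, 200 to 101 bases before the start: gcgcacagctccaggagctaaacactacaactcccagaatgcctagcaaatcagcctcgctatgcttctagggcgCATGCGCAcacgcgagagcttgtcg
The match in Acsl6 reads on the other strand and begins 167 bases before the start. Those in Acadm and Etfdh begin 157 and 125 bases before it, and Etfdh, unlike Acadm, was among the 5 genes with no call among the 5 groups.

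Of the 2 genes for fatty acid binding proteins, Fabp7 was higher in the cells with EGFR and Fabp5 was not called. Fabp7 (brain lipid binding protein, a marker of radial glia; mm10 chromosome 10, 57784923 to 57788450) had 916, 427 and 559.8 CPM in GCEPB+ and 517, 443 and 555 CPM in GCEPB-, against 221, 116 and 173 CPM in GCPB+. All 6 libraries with EGFR were above all 3 of GCPB+. The log2 fold change ± SE was 1.90 ± 0.32, adjusted p = 0.000188, in GCEPB+, and 1.57 ± 0.32, adjusted p = 0.000546, in GCEPB-, each against GCPB+ (the SE is the absolute fold change over the root of edgeR's F statistic). GPB+ had 255, 117 and 142 CPM and CTX 282, 189.7 and 230.0 CPM. Fabp5, the epidermal type of the same family, had 383, 247 and 283 CPM in GCEPB+ and 277, 296 and 338 CPM in GCEPB-, against 355, 307 and 368 CPM in GCPB+, and passed in no comparison. Processed pseudogenes of Fabp5 make its count uncertain. Per length, Fabp7 was at 797 ± 330.0 FPKM and Fabp5 at 294 ± 69.6 FPKM in GCEPB+ (SD, n = 3), the highest means of the 37 genes in that group.

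Acyl-CoA synthetases, which activate fatty acids for every later use, held the widest falls and one of the 2 rises. Acsl6 (mm10 chromosome 11, 54303824 to 54361539), a brain-rich synthetase tied to polyunsaturated fatty acids, had 199, 342 and 321 CPM in GCEPB+ and 63.3, 70.6 and 56.4 CPM in GCEPB-, against 1514, 2269.5 and 1989 CPM in GCPB+. The 3 groups did not overlap, and it was lower in GCEPB+ (-2.74 ± 0.24, adjusted p = 3.68e-07) and in GCEPB- (-4.92 ± 0.27, adjusted p = 3.63e-10) than in GCPB+, and higher in GCEPB+ than in GCEPB- (2.18 ± 0.24, adjusted p = 8.4e-06). Acsl3 (mm10 chromosome 1, 78657825 to 78707743), a synthetase of the endoplasmic reticulum and lipid droplets, had 222, 411 and 496 CPM in GCEPB+ and 122, 219.5 and 134 CPM in GCEPB-, against 2022, 1519.9 and 2132 CPM in GCPB+. Its lowest GCPB+ library was above all 6 libraries with EGFR, with log2 fold changes of -2.33 ± 0.28, adjusted p = 7.76e-06, and -3.58 ± 0.30, adjusted p = 4.14e-08. Acsbg1 (mm10 chromosome 9, 54604997 to 54661885), the bubblegum-type synthetase of very long chains, had 429, 698 and 641 CPM in GCEPB+ and 163, 212 and 246 CPM in GCEPB-, against 2651, 2991 and 2740.1 CPM in GCPB+. It followed the same order without overlap (-2.25 ± 0.23, adjusted p = 1.28e-06, for GCEPB+ and -3.75 ± 0.24, adjusted p = 2.11e-09, for GCEPB-, each against GCPB+). GCEPB+ was above GCEPB- for Acsbg1 (1.51 ± 0.22) and Acsl3 (1.25 ± 0.27).

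Of the other 3 synthetases, Acsl5 was higher in the cells with EGFR, and Acsl4 and Acsl1 were not called. Acsl5, an isoform of mitochondria and endoplasmic reticulum known mainly from gut and liver, had 3.88, 4.12 and 6.52 CPM in GCEPB+ and 6.49, 3.63 and 4.71 CPM in GCEPB-, against 1.18, 0.737 and 0.508 CPM in GCPB+. It was higher in both (2.57 ± 0.70, adjusted p = 0.00842, and 2.60 ± 0.70, adjusted p = 0.0054), at a low level: 11 of 15 libraries were above the low-count cutoff of 0.526 CPM, 6 of them those with EGFR. Acsl4, which prefers arachidonic acid, had 35.9, 52.9 and 49.2 CPM in GCEPB+ and 40.4, 33.9 and 46.4 CPM in GCEPB-, against 40.3, 29.7 and 50.4 CPM in GCPB+, and the groups overlapped. Acsl1, the main isoform of liver, fat and muscle, averaged 13.8 ± 2.54 CPM in GCEPB+ and 7.07 ± 2.19 CPM in GCEPB-, against 7.62 ± 1.98 CPM in GCPB+ (SD, n = 3 each), and passed in no comparison. GPB+ replicate 1 held a single read of Acsl1, 0.0501 CPM, against 12.6 and 6.23 CPM in replicates 2 and 3. Per length, the 6 synthetases summed to 334 ± 88.8 FPKM in GCEPB+ and 122 ± 18.2 FPKM in GCEPB-, against 1448 ± 67.2 FPKM in GCPB+, 1355 ± 110.1 FPKM in GPB+ and 1178 ± 255 FPKM in CTX. Acsbg1 made up 39.9% to 47.2% of that sum as a mean of each group. The share of Acsl6 was 15.9 ± 2.17% in GCEPB-, against 31.7 ± 4.67% in GCPB+ (SD, n = 3).

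**Figure D2:**
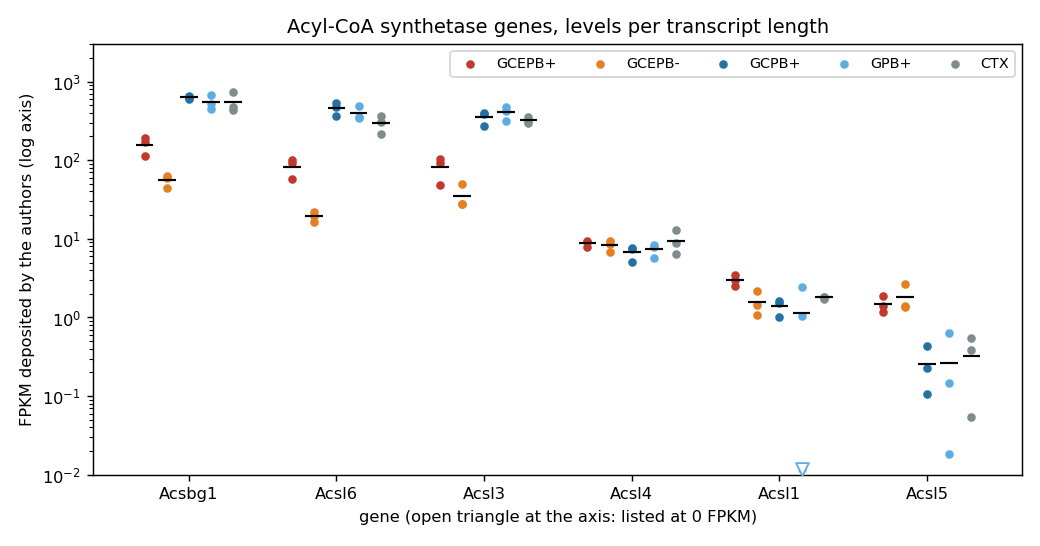
Level per transcript length of the 6 acyl-CoA synthetase genes on a log axis, in FPKM as deposited; each point is 1 library, the bars are group means, and the open triangle marks the library listed at 0. Acsbg1, Acsl6 and Acsl3 lie more than 10-fold above the other 3 genes in GCPB+, GPB+ and CTX and drop in GCEPB+ and further in GCEPB-.

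The carnitine shuttle carries long chains over the inner mitochondrial membrane. Cpt1a (mm10 chromosome 19, 3323301 to 3385733), the rate-limiting transferase of the outer membrane, had 67.8, 169 and 133 CPM in GCEPB+ and 41.8, 47.9 and 33.9 CPM in GCEPB-, against 278, 408 and 384 CPM in GCPB+. No group overlapped another, and the log2 fold change against GCPB+ was -1.53 ± 0.28, adjusted p = 0.000375, in GCEPB+ and -3.11 ± 0.30, adjusted p = 1.89e-07, in GCEPB-. GCEPB+ was above GCEPB- (1.58 ± 0.28, adjusted p = 0.00101), although GCEPB+ replicate 1 had less than the other 2 libraries of its group. Cpt2, the transferase of the inner membrane, was lower in GCEPB+ (-0.81 ± 0.23, adjusted p = 0.0107) and GCEPB- (-1.44 ± 0.23, adjusted p = 7.2e-05) than in GCPB+, and the first call was lost without GCPB+ replicate 2 (adjusted p = 0.0733). On the FPKM scale that first call was lost too (adjusted p from 0.104 to 0.149, limma). Slc25a20, the carnitine carrier, was lower in GCEPB- than in GCPB+ (-1.72 ± 0.28, adjusted p = 6.34e-05), while its difference between GCEPB+ and GCPB+ missed the threshold (-0.69 ± 0.27, adjusted p = 0.0544) and passed it with the replicate number as a block (adjusted p = 0.0398). It was higher in GCEPB+ than in GCEPB- (1.03 ± 0.27, adjusted p = 0.0197), a call lost when GCEPB+ replicate 3 was left out (adjusted p = 0.0916), and likewise for GCEPB- replicate 1 (adjusted p = 0.097). Per length, the 4 shuttle genes summed to 84.2 ± 17.4 FPKM in GCEPB+ and 44.1 ± 5.72 FPKM in GCEPB-, against 129 ± 24.7 FPKM in GCPB+, 126 ± 30.2 FPKM in GPB+ and 119 ± 19.6 FPKM in CTX (SD, n = 3 each). Cpt1c, the neuronal isoform with little transferase activity, was lower in GCEPB- than in GCPB+ (-1.04 ± 0.23, adjusted p = 0.00116), with -0.36 and no call in GCEPB+ against GCPB+.

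Acyl-CoA dehydrogenases open each round of beta-oxidation and differ by the chain length they take. Acadvl (very long chains; mm10 chromosome 11, 70010183 to 70015428) had 91.2, 79.9 and 68.5 CPM in GCEPB+ and 30.0, 32.4 and 29.5 CPM in GCEPB-, against 236, 226 and 207 CPM in GCPB+. The replicates of each group lay close together and the groups apart (-1.48 ± 0.17, adjusted p = 5.02e-06, and -2.86 ± 0.18, adjusted p = 1.79e-09, each against GCPB+, and 1.38 ± 0.17, adjusted p = 3.67e-05, for GCEPB+ against GCEPB-). Acadl, for long chains, was at 95.5 ± 11.6 CPM in GCEPB+ and 46.4 ± 5.21 CPM in GCEPB-, against 221 ± 39.8 CPM in GCPB+ (SD, n = 3 each), with log2 fold changes of -1.21 ± 0.17 and -2.25 ± 0.18. Acadm, for medium chains, changed less (-0.72 ± 0.18 and -1.61 ± 0.18), and both were higher in GCEPB+ than in GCEPB- (1.04 and 0.89). The 4 dehydrogenases summed per length to 140 ± 5.42 FPKM in GCEPB+ and 71.2 ± 3.10 FPKM in GCEPB-, against 255 ± 21.0 FPKM in GCPB+, 229.6 ± 23.1 FPKM in GPB+ and 266 ± 44.6 FPKM in CTX (SD, n = 3 each). Acads, for short chains, was called in none of these comparisons. Its values were -0.52 ± 0.21, adjusted p = 0.0655, in GCEPB+ and -0.51 ± 0.21, adjusted p = 0.0574, in GCEPB-, each against GCPB+.

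Of the 5 genes of the later mitochondrial steps, 3 were lower in GCEPB+ and all 5 lower in GCEPB-, each against GCPB+. Per length, these 5 summed to 420 ± 20.3 FPKM in GCEPB+ and 273 ± 6.41 FPKM in GCEPB- (SD, n = 3 each). The sums were 531 ± 38.3 FPKM in GCPB+, 460 ± 84.3 FPKM in GPB+ and 421 ± 60.8 FPKM in CTX. In CPM, GCEPB+ averaged less than CTX for Hadhb (179 against 307), Hadh (106 against 165) and Acaa2 (146 against 263). It averaged more for Hadha and Echs1. Acaa2 (mm10 chromosome 18, 74779212 to 74806207), the thiolase that cleaves off acetyl-CoA, had 142, 139.5 and 158 CPM in GCEPB+ and 31.5, 42.4 and 51.4 CPM in GCEPB-, against 344, 394 and 334 CPM in GCPB+. These 3 groups stood apart, at log2 fold changes of -1.29 ± 0.19, adjusted p = 6.24e-05, and -3.10 ± 0.21, adjusted p = 3.12e-09, against GCPB+. The difference between GCEPB+ and GCEPB- was 1.81 ± 0.20, adjusted p = 8.17e-06. Hadha and Hadhb code for the alpha and beta subunits of the mitochondrial trifunctional protein, which runs the last 3 steps on long chains. They lie head to head on chromosome 5, on opposite strands with 272 bases between their starts, and the stretch printed above is part of those. Hadha was at 93.8 ± 7.90 CPM in GCEPB+ and 76.4 ± 2.23 CPM in GCEPB-, against 160.3 ± 8.35 CPM in GCPB+, and Hadhb at 179 ± 17.4 CPM in GCEPB+ and 111 ± 9.46 CPM in GCEPB-, against 398 ± 30.2 CPM in GCPB+ (SD, n = 3 each). Both were lower in the cells with EGFR than in GCPB+. In CTX, Hadha was at 89.4 ± 21.1 CPM, near its level in GCEPB+. On the FPKM scale the call of Hadha in GCEPB+ against GCPB+ was lost (adjusted p from 0.11 to 0.127, limma). In GCEPB+ and GCEPB-, each against GCPB+, the log2 fold changes were -1.15 ± 0.17 and -1.84 ± 0.17 for Hadhb and -0.77 ± 0.18 and -1.07 ± 0.18 for Hadha, and the difference between the 2 genes was not tested. Hadhb was higher in GCEPB+ than in GCEPB- (0.68 ± 0.17, adjusted p = 0.0112), a call that needed both GCEPB+ replicate 2 (adjusted p = 0.0551 when left out) and GCEPB- replicate 1 (adjusted p = 0.059 when left out). Hadh, which acts on shorter chains, and Echs1, the short-chain hydratase, were lower in GCEPB- than in GCPB+ (-0.72 ± 0.22, adjusted p = 0.0118, and -0.42 ± 0.14, adjusted p = 0.0243). Both calls were lost on leaving out 1 library, that of Hadh without GCPB+ replicate 2 (adjusted p = 0.061) and that of Echs1 without any of 4 libraries: GCEPB- replicate 1 or 2, or GCPB+ replicate 1 or 2 (adjusted p from 0.052 to 0.103). On the FPKM scale both were lost (adjusted p from 0.136 to 0.199 for Hadh and from 0.569 to 0.592 for Echs1, limma). Echs1 averaged 352 ± 29.1 CPM in GCEPB+ and 268 ± 15.8 CPM in GCEPB-, against 248 ± 8.16 CPM in CTX (SD, n = 3 each).

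Of the 4 genes for unsaturated chains and thioester release, 3 were lower in GCEPB+ and 4 in GCEPB-, each against GCPB+. Eci1 and Eci2, isomerases that shift double bonds, had log2 fold changes of -0.80 ± 0.21 and -0.70 ± 0.15 in GCEPB+ and -1.51 ± 0.22 and -1.10 ± 0.15 in GCEPB-, all called against GCPB+. On the FPKM scale the call of Eci1 in GCEPB+ against GCPB+ was lost (adjusted p from 0.0642 to 0.109, limma). Decr1, the mitochondrial dienoyl-CoA reductase, was lower in GCEPB- (-1.04 ± 0.21, adjusted p = 0.000614) and had -0.53 ± 0.21, adjusted p = 0.0593, in GCEPB+, where it passed with the replicate block (adjusted p = 0.0359). Acot2, which frees fatty acids from coenzyme A in mitochondria and whose count is uncertain because of its close copy Acot1, was lower in both (-0.78 ± 0.19 and -1.08 ± 0.19). Between GCEPB+ and GCEPB-, Eci1 was higher (0.70 ± 0.21, adjusted p = 0.0418), and this call was lost without any 1 of 5 libraries, all of these groups except GCEPB+ replicate 2 (adjusted p from 0.0829 to 0.167). It was also lost on the FPKM scale (adjusted p from 0.058 to 0.102, limma) and in a fit of these 2 groups alone (adjusted p = 0.0552, edgeR).

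Electrons pass from the dehydrogenases to the respiratory chain through the products of 3 members, of which 1 was lower in GCEPB+ and 2 in GCEPB-, each against GCPB+. Per length, these 3 summed to 287 ± 48.9 FPKM in GCEPB+ and 214 ± 11.6 FPKM in GCEPB- (SD, n = 3 each). The sums were 310 ± 32.9 FPKM in GCPB+, 245 ± 49.3 FPKM in GPB+ and 283 ± 35.8 FPKM in CTX. In CPM, Etfa averaged 168 in GCEPB+, 172 in GPB+ and 188 in CTX, and Etfb 153, 166 and 196 in the same order. Etfdh averaged 97.1, 86.8 and 95.7 CPM. Etfb, the beta subunit of the electron transfer flavoprotein, was at 153 ± 17.6 CPM in GCEPB+ and 101 ± 13.7 CPM in GCEPB-, against 222 ± 30.7 CPM in GCPB+ (SD, n = 3 each). It was lower in GCEPB+ (-0.54 ± 0.19, adjusted p = 0.0371) and GCEPB- (-1.14 ± 0.19, adjusted p = 0.000107), the first call being lost without GCEPB+ replicate 2 or 3 or GCPB+ replicate 1 or 2 (adjusted p from 0.0936 to 0.131). That first call was also lost on the FPKM scale (adjusted p from 0.312 to 0.394, limma). The alpha subunit, Etfa, was lower in GCEPB- than in GCPB+ (-0.54 ± 0.20, adjusted p = 0.0289), which was lost without any 1 of 5 libraries, all of these groups except GCEPB- replicate 3 (adjusted p from 0.0501 to 0.0919), and the test among the 5 groups did not call it. The call of Etfa was also lost on the FPKM scale (adjusted p from 0.354 to 0.439, limma). Etfdh, the ubiquinone oxidoreductase that takes the electrons on, had 103, 83.0 and 106 CPM in GCEPB+ and 58.7, 85.6 and 88.5 CPM in GCEPB-, against 79.9, 109 and 104 CPM in GCPB+, with overlap between all of them.

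**Figure D3:**
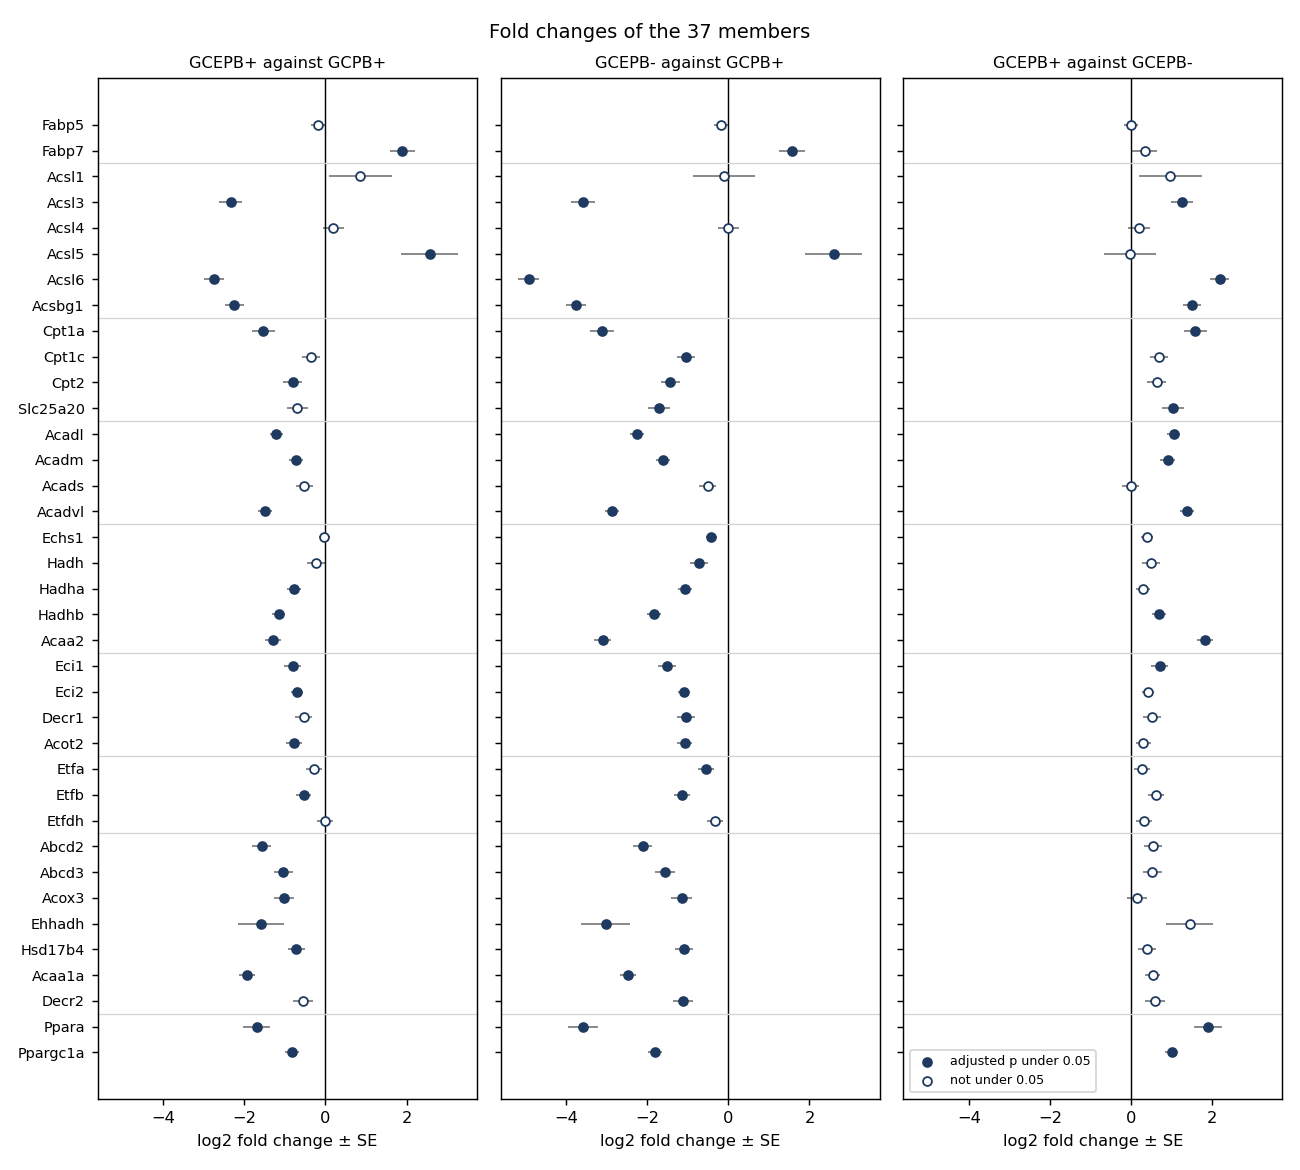
Log2 fold changes ± SE of the 37 genes in 3 comparisons on 1 common axis, in order of role and with lines between roles; filled points passed an adjusted p of 0.05 and open points did not. The synthetases Acsl6, Acsl3 and Acsbg1, with Ppara, Cpt1a and Acaa2, reach furthest left in GCEPB- against GCPB+, and Fabp7 and Acsl5 lie to the right of 0 in the 2 comparisons against GCPB+.

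Among the 7 peroxisomal members, 6 were lower in GCEPB+ and 7 in GCEPB-, each against GCPB+. In GCEPB+ against GCEPB-, 0 of 7 were called, beside 9.28% higher and 1.85% lower of all genes. The log2 fold changes of the 7 there were all above 0, from 0.135 to 1.44 with a median of 0.53. Acaa1a (mm10 chromosome 9, 119341294 to 119350295), the peroxisomal thiolase, had 40.5, 46.7 and 32.6 CPM in GCEPB+ and 29.6, 27.7 and 25.7 CPM in GCEPB-, against 191, 143 and 126 CPM in GCPB+. Its lowest GCPB+ library was above all libraries with EGFR, with log2 fold changes of -1.94 ± 0.19, adjusted p = 1.12e-06, and -2.47 ± 0.20, adjusted p = 2.52e-08. A close copy, Acaa1b, makes its count uncertain. Abcd2 and Abcd3, transporters that bring acyl-CoA into the peroxisome, were at 81.8 ± 25.8 and 176 ± 51.3 CPM in GCEPB+ and 56.2 ± 0.169 and 123 ± 12.3 CPM in GCEPB-, against 243 ± 56.2 and 363 ± 109 CPM in GCPB+ (SD, n = 3 each). All were called, with log2 fold changes against GCPB+ of -1.57 ± 0.23 and -2.11 ± 0.23 for Abcd2 and -1.04 ± 0.24 and -1.56 ± 0.24 for Abcd3. Acox3, an oxidase of branched chains, was lower in both (-1.02 ± 0.25 and -1.15 ± 0.25), as was Hsd17b4, the D-bifunctional protein (-0.71 ± 0.22 and -1.10 ± 0.22). Ehhadh, the L-bifunctional protein, had 1.33, 6.79 and 4.34 CPM in GCEPB+ and 2.43, 1.78 and 0.402 CPM in GCEPB-, against 15.5, 10.5 and 11.3 CPM in GCPB+. It was lower in GCEPB+ (-1.59 ± 0.57, adjusted p = 0.0387) and GCEPB- (-3.02 ± 0.61, adjusted p = 0.000556). In GCEPB+ against GCPB+, the call of Ehhadh was lost without any 1 of 5 libraries, all except GCEPB+ replicate 2 (adjusted p from 0.0563 to 0.125), and that of Hsd17b4 when GCEPB+ replicate 1 (adjusted p = 0.0785) or replicate 3 of GCPB+ (adjusted p = 0.0606) was left out. That of Hsd17b4 was also lost on the FPKM scale (adjusted p from 0.0971 to 0.143, limma). Per length, the 7 genes summed to 143 ± 28.9 FPKM in GCEPB+ and 104 ± 3.40 FPKM in GCEPB-, against 254 ± 16.2 FPKM in GCPB+, 218 ± 28.7 FPKM in GPB+ and 234 ± 21.9 FPKM in CTX (SD, n = 3 each). Decr2, the peroxisomal dienoyl-CoA reductase, was lower in GCEPB- (-1.12 ± 0.25, adjusted p = 0.00127) and had -0.54 ± 0.25, adjusted p = 0.0982, in GCEPB+, where it passed with the replicate block (adjusted p = 0.0283).

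Both regulators among the members were lower in the cells with EGFR. Ppara (mm10 chromosome 15, 85735564 to 85806851), the nuclear receptor that senses fatty acids and turns on their oxidation, had 10.8, 30.0 and 24.1 CPM in GCEPB+ and 8.53, 3.30 and 5.59 CPM in GCEPB-, against 66.4, 72.3 and 71.8 CPM in GCPB+. The 3 groups did not overlap, and the log2 fold change was -1.70 ± 0.34, adjusted p = 0.000789, in GCEPB+ and -3.58 ± 0.37, adjusted p = 4.35e-07, in GCEPB-, each against GCPB+. It was 1.88 ± 0.35, adjusted p = 0.00142, for GCEPB+ against GCEPB-. Ppargc1a, the coactivator PGC-1α, had 76.6, 109 and 90.7 CPM in GCEPB+ and 51.6, 43.4 and 43.8 CPM in GCEPB-, against 162, 152 and 176 CPM in GCPB+. It too was in 3 separate ranges (-0.82 ± 0.17, adjusted p = 0.00103, -1.82 ± 0.17, adjusted p = 1.87e-07, and 0.99 ± 0.17, adjusted p = 0.000718, in the same order of comparisons).

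**Figure D4:**
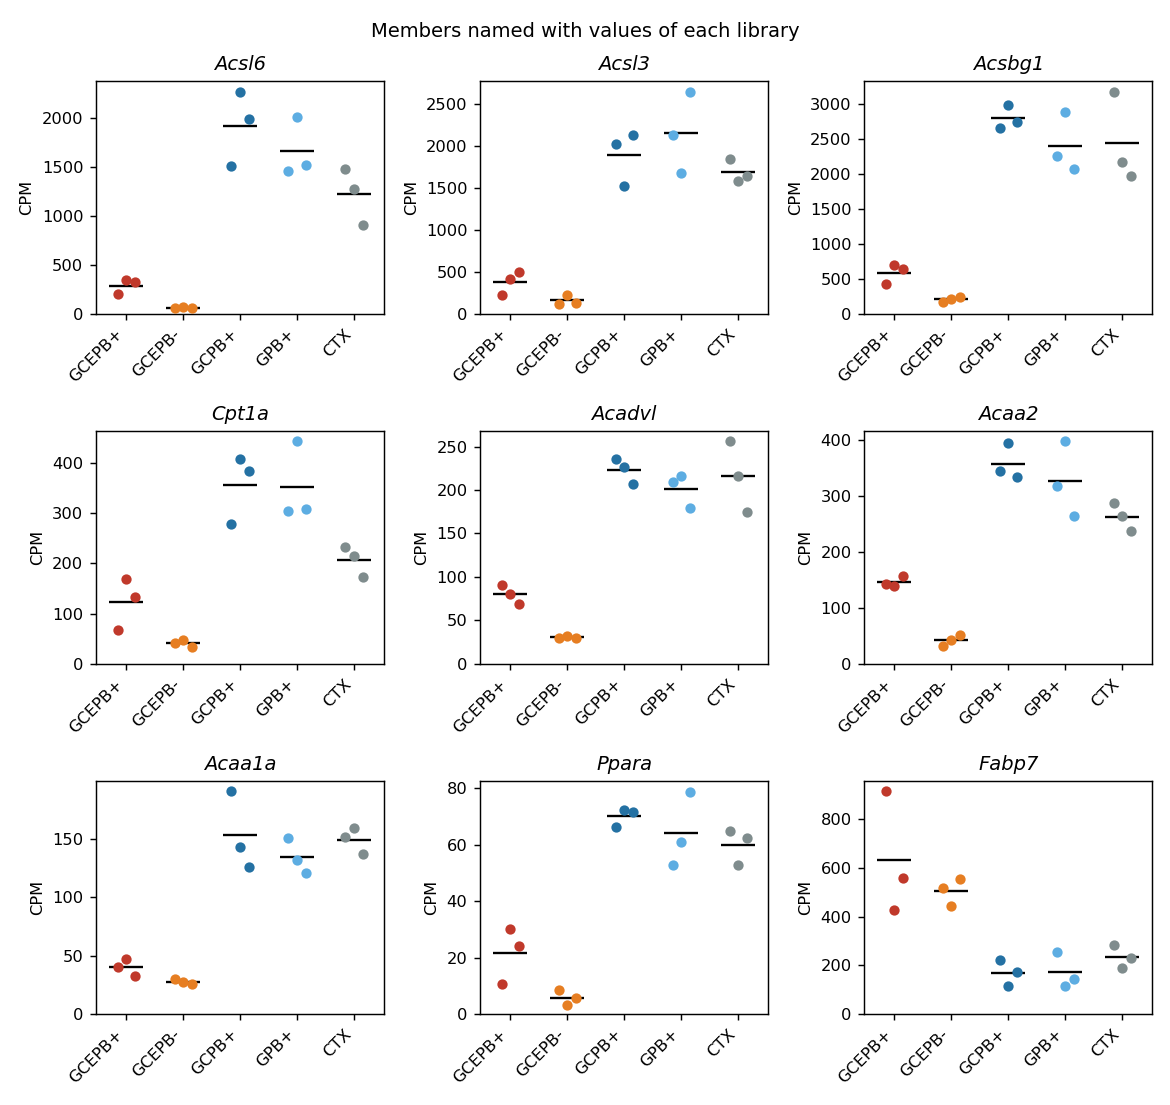
CPM of 9 members in the 5 populations on linear axes from 0; points are libraries in the order of their replicate numbers and bars are group means (n = 3). For Acsl6, Acsl3, Acsbg1, Cpt1a, Acadvl, Acaa2, Acaa1a and Ppara the libraries of GCEPB+ and GCEPB- lie below those of GCPB+, and for Fabp7 above them.

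Between GCPB+ and GPB+, the V-SVZ populations with and without CD133, 0 of the 37 genes were called, beside 0.0245% higher and 0.00613% lower of all genes. The fitted log2 fold changes were -0.36 to 0.62, with 31 of 37 above 0 and a median of 0.19, beside -0.00 over all genes. At an unadjusted p under 0.05 there were 4: Fabp5 (0.51), Acadm (0.45), Etfb (0.42) and Echs1 (0.35), with adjusted p from 0.645 to 0.681 in edgeR's test. DESeq2, limma with voom weights and the FPKM fits also called 0 of 37. In 7 of the 37 genes all GCPB+ libraries were above all GPB+ libraries, and in 0 below. The same share over all genes was not counted, so the 7 are not read as a trait of the members. Fabp5 measured 307 to 368 CPM in GCPB+, against 231 to 249.8 CPM in GPB+, and Acadm 111 to 146 CPM in GCPB+, against 88.1 to 102 CPM in GPB+. The other 5 were Echs1, Eci2, Etfa, Hadha and Hadhb, and none of the 7 passed the test. As examples of other levels, Acsl6 had 1514, 2269.5 and 1989 CPM in GCPB+, against 1462, 2017 and 1517 CPM in GPB+, and Cpt1a 278, 408 and 384 CPM in GCPB+, against 304, 443 and 308 CPM in GPB+. Their ranges overlapped. Acsl3 had 2022, 1519.9 and 2132 CPM in GCPB+, against 2139, 1675 and 2653 CPM in GPB+, and Ppara had 66.4, 72.3 and 71.8 CPM in GCPB+, against 53.0, 61.0 and 78.8 CPM in GPB+, likewise with overlap. The summed astrocyte markers were 58900 to 68800 CPM in GCPB+ and 49500 to 59600 CPM in GPB+, with 0 of 9 called.

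Between GPB+ and the astrocytes of the cortex, 1 of the 37 was called, beside 4.04% higher and 2.7% lower of all genes. The median log2 fold change of the 37 was -0.15, beside 0.00 over all genes. The gene called was Hadha, with 144, 147 and 119 CPM in GPB+, against 111, 87.7 and 69.2 CPM in CTX, ranges that do not overlap (0.61 ± 0.18, adjusted p = 0.0467, edgeR). The call was lost with RLE factors (adjusted p = 0.0591), with no low-count filter (adjusted p = 0.0698) and in a fit of these 2 groups alone (adjusted p = 0.109). On the FPKM scale it was lost too (adjusted p from 0.0944 to 0.11, limma). The call of Hadha was also lost when either GPB+ replicate 1 or 2 or CTX replicate 2 or 3 was left out (adjusted p from 0.119 to 0.205). Its partner Hadhb overlapped between the groups (0.16 ± 0.16, adjusted p = 0.656). Cpt1a had 304, 443 and 308 CPM in GPB+, against 232, 214 and 173 CPM in CTX, without overlap (0.77 ± 0.27, adjusted p = 0.111), and passed with voom weights (adjusted p = 0.0158) and in a fit of these 2 groups alone (adjusted p = 0.0444). Eci2, at 166 ± 10.2 CPM in GPB+ and 219.8 ± 29.1 CPM in CTX (SD, n = 3 each), was called lower by DESeq2 (adjusted p = 0.0422) but not by edgeR (adjusted p = 0.11). All GPB+ libraries were above all CTX libraries in 2 of the 37 genes and below them in 5 (Acadl, Acads, Eci2, Fabp5 and Slc25a20). This was not counted over all genes. Of the genes that differed most in the cells with EGFR, Acsl6, Acsbg1 and Ppara overlapped here, and Cpt1a did not. Acsl6 had 1462, 2017 and 1517 CPM in GPB+, against 1479.5, 1277 and 913 CPM in CTX, and Acsbg1 had 2252, 2884 and 2075 CPM in GPB+, against 3177, 2169 and 1966 CPM in CTX. Ppara had 53.0, 61.0 and 78.8 CPM in GPB+, against 65.0, 52.9 and 62.4 CPM in CTX. At an unadjusted p under 0.05 edgeR gave 5 of the 37: Hadha, Cpt1a, Eci2, Acads (-0.53) and Hadh (-0.58). The cycling markers were higher in GPB+ for 6 of 7, although their sums, set mostly by Ccnd2, overlapped (103 to 163 CPM in GPB+ and 124 to 151 CPM in CTX), and the astrocyte markers lower for 1 of 9, Gjb6. Dlx2 was at 0 in the 3 CTX libraries. The part of these markers in the members' values was not tested.

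The 7 oligodendrocyte markers summed to 61.2 to 749 CPM in GCEPB+ and 16.0 to 77.2 CPM in GCEPB-, against 734 to 1020 CPM in GCPB+, 193 to 393 CPM in GPB+ and 25.1 to 209 CPM in CTX. They were lower in GCEPB- than in GCPB+ for 7 of 7, with a median log2 fold change of -4.79 beside -4.95 for the 9 astrocyte markers, and in GCEPB+ for 1 of 7, Mbp, and higher in GCEPB+ than in GCEPB- for 4 of 7. Their part in the members' differences was not tested. The 7 ependymal markers summed to at most 35.5 CPM in GCEPB+ and 7.07 CPM in GCEPB-, against 81.7 CPM in GCPB+. The 7 neuroblast markers summed to 67.1 to 95.4 CPM in GCEPB+ and 207 to 296 CPM in GCEPB-, against 26.1 to 33.1 CPM in GCPB+. Of each list, 1 ependymal gene was lower and 3 neuroblast genes higher in GCEPB+, and 2 lower and 5 higher in GCEPB-, each against GCPB+. Endothelial, mural, microglial, neuronal and oligodendrocyte progenitor lists each summed to at most 63.9 CPM in every library, and at most 2 genes of any of them passed in 1 direction in a comparison.

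Other genes of the same pathways, taken from lists by function, were counted beside the members. These lists too were chosen with earlier results of these data known. Over all genes tested, 18% were lower and 18.1% higher in GCEPB+, and 24.9% and 23.9% in GCEPB-, each against GCPB+. In GCEPB+ against GCEPB- the shares were 9.28% higher and 1.85% lower. Of 22 further mitochondrial genes of fatty acid and acyl-CoA oxidation, 7 fell in GCEPB+ and 17 in GCEPB-, each against GCPB+, and 0 rose. The medians were -0.43 and -1.09 on the log2 scale, beside 0.11 and 0.06 over all genes. Between GCEPB+ and GCEPB-, 6 were higher in GCEPB+ and 0 lower. Slc25a42, the mitochondrial carrier of coenzyme A, had 12.4, 25.6 and 24.2 CPM in GCEPB+ and 11.7, 10.5 and 10.4 CPM in GCEPB-, against 72.2, 112 and 81.7 CPM in GCPB+ (-2.10 ± 0.28 and -3.03 ± 0.30, both called). Mlycd, which breaks down malonyl-CoA, the inhibitor of Cpt1a, was lower as well (-1.13 ± 0.29 and -1.52 ± 0.30). Acacb, which makes malonyl-CoA at mitochondria, was at 2.23 ± 1.56 CPM in GCEPB+ and 0.991 ± 0.903 CPM in GCEPB-, against 12.6 ± 2.36 CPM in GCPB+ (SD, n = 3 each), and was called lower in both (adjusted p = 0.0159 and 0.00127). The GCEPB+ call of Acacb was lost without GCEPB+ replicate 1 (adjusted p = 0.0628) or 3 (adjusted p = 0.0547).

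Of 26 other genes listed as peroxisomal enzymes and transporters, 16 fell and 2 rose in GCEPB+ and 20 fell and 1 rose in GCEPB-, each against GCPB+, with medians of -0.65 and -1.62 on the log2 scale. Those that rose, named after their values were seen, were Gnpat, of ether lipid synthesis, in both, and Pecr, a trans-enoyl-CoA reductase, in GCEPB+. Their calls in GCEPB+ were lost without GCEPB+ replicate 1 (adjusted p = 0.0736 for Gnpat and 0.139 for Pecr) or GCPB+ replicate 2 (adjusted p = 0.0983 and 0.0794), that of Gnpat also without GCEPB+ replicate 2 or 3 or GCPB+ replicate 1 (adjusted p from 0.076 to 0.174), and its call in GCEPB- without replicate 1 or 2 of either group (adjusted p from 0.0516 to 0.113). Between GCEPB+ and GCEPB-, 15 were higher in GCEPB+ and 0 lower. Ephx2 (mm10 chromosome 14, 66084372 to 66124522), soluble epoxide hydrolase, had 63.1, 127 and 114 CPM in GCEPB+ and 13.8, 18.5 and 15.7 CPM in GCEPB-, against 564, 641 and 560.4 CPM in GCPB+. The 3 ranges were far apart (-2.54 ± 0.23, adjusted p = 4.41e-07, -5.20 ± 0.26, adjusted p = 1.78e-10, and 2.67 ± 0.23, adjusted p = 9.01e-07, for GCEPB+ against GCEPB-). Abcd4, counted in this list as a gene of the same family as Abcd2 and Abcd3, was lower in GCEPB+ (-1.78 ± 0.24) and in GCEPB- (-2.76 ± 0.25) than in GCPB+. Nudt7, a peroxisomal hydrolase of coenzyme A, had 0.686, 6.06 and 3.67 CPM in GCEPB+ and 0.0442, 0.132 and 0.764 CPM in GCEPB-, against 14.6, 18.4 and 18.3 CPM in GCPB+. Of 16 peroxins, the proteins that build peroxisomes, 7 were lower in GCEPB+ and 9 in GCEPB- and 0 higher, each against GCPB+, and 1 was higher in GCEPB+ than in GCEPB-. The medians against GCPB+ were -0.65 in GCEPB+ and -0.59 in GCEPB- on the log2 scale. Pex14 and Pex16, parts of the import and membrane machinery, were lower in GCEPB+ (-1.42 ± 0.34 and -1.16 ± 0.24) and GCEPB- (-1.71 ± 0.34 and -1.71 ± 0.24). Pex11a, which promotes peroxisome division, was higher in GCEPB+ than in GCEPB- (0.90 ± 0.22, adjusted p = 0.0121), lost without GCEPB+ replicate 1 or GCEPB- replicate 1 or 3 (adjusted p from 0.0511 to 0.0562), and lower in GPB+ than in CTX, at 28.2, 25.0 and 28.7 CPM in GPB+, against 95.1, 57.0 and 78.9 CPM in CTX (-1.49 ± 0.22, adjusted p = 0.000467).

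Of 22 genes tested for uptake, binding, activation and release of fatty acids, 7 fell and 3 rose in GCEPB+ and 10 fell and 2 rose in GCEPB-, each against GCPB+, with medians of -0.62 and -0.86 on the log2 scale. Between GCEPB+ and GCEPB-, 8 were higher in GCEPB+ and 0 lower. Acbd4, an acyl-CoA binding protein, had 6.99, 14.7 and 8.33 CPM in GCEPB+ and 2.78, 1.85 and 0.644 CPM in GCEPB-, against 65.0, 62.4 and 42.8 CPM in GCPB+. Its GCPB+ libraries were all above those with EGFR (adjusted p = 0.000122 in GCEPB+ and -5.02 ± 0.46, adjusted p = 1.36e-07, in GCEPB-). Acot11, a long-chain thioesterase, was at 57.6 ± 27.8 CPM in GCEPB+ and 12.2 ± 3.42 CPM in GCEPB-, against 296 ± 72.4 CPM in GCPB+ (SD, n = 3 each; -4.60 ± 0.36, adjusted p = 2.25e-08, for GCEPB- against GCPB+ and 2.24 ± 0.33, adjusted p = 0.000196, for GCEPB+ against GCEPB-). Slc27a3, a fatty acid transport protein with synthetase activity, went the other way, with 15.4, 7.32 and 4.91 CPM in GCEPB+ and 17.5, 20.7 and 15.2 CPM in GCEPB-, against 0.147, 0.164 and 0.305 CPM in GCPB+, where the libraries held 4, 2 and 9 reads (adjusted p = 0.00029 and 4.32e-05). No fold is given against so few reads. The others that rose, named after their values were seen, were Acot7, the main acyl-CoA thioesterase of brain (1.28 ± 0.27 in GCEPB+ and 1.45 ± 0.27 in GCEPB-), and Dbi, the acyl-CoA binding protein (0.59 ± 0.20, adjusted p = 0.0267, in GCEPB+). The call of Dbi was lost without GCEPB+ replicate 1 (adjusted p = 0.161), GCPB+ replicate 2 (adjusted p = 0.104) or GCPB+ replicate 3 (adjusted p = 0.0644).

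Among 24 genes tested from a list on the transcriptional control of the pathway, lipases and known targets included, 10 fell and 4 rose in GCEPB+ and 13 fell and 5 rose in GCEPB-, each against GCPB+, with medians of -0.59 and -1.25 on the log2 scale. Over all genes, 18% fell and 18.1% rose in GCEPB+ and 24.9% fell and 23.9% rose in GCEPB-. The rises were near those shares and are not read as a trait of the list. Between GCEPB+ and GCEPB-, 4 were higher in GCEPB+ (Angptl4, Foxo1, Sirt3 and Pdk4) and 1 lower. The calls of Sirt3 and Pdk4 were lost without GCEPB- replicate 1 (adjusted p = 0.07 and 0.159) or replicate 2 (adjusted p = 0.0659 and 0.149), that of Sirt3 also without GCEPB+ replicate 1 (adjusted p = 0.0551), and that of Pdk4 without GCEPB+ replicate 2 (adjusted p = 0.099) or 3 (adjusted p = 0.192). Angptl4, a secreted inhibitor of lipoprotein lipase and a known PPAR target, had 3.35, 21.1 and 12.2 CPM in GCEPB+ and 1.10, 3.30 and 1.29 CPM in GCEPB-, against 55.2, 68.8 and 32.0 CPM in GCPB+. All libraries with EGFR were below all of GCPB+ (-2.09 ± 0.52, adjusted p = 0.00453, and -4.82 ± 0.61, adjusted p = 4.69e-06). Foxo1, a transcription factor of the fasting state, was lower in GCEPB- than in GCPB+ (adjusted p = 2.37e-07) and higher in GCEPB+ than in GCEPB- (1.48 ± 0.19, adjusted p = 4.77e-05). Among the genes that rose, named after their values were seen, were the corepressor Ncor1, the coactivator subunit Med1 and the deacetylase Sirt1, in both, and the coactivator Pprc1, in GCEPB-. In GCEPB+ against GCPB+, the call of Med1 was lost without GCEPB+ replicate 2 or 3 or GCPB+ replicate 1 or 3 (adjusted p from 0.0871 to 0.157) and that of Sirt1 without GCPB+ replicate 1 (adjusted p = 0.0539) or 2 (adjusted p = 0.0604). In GCEPB- against GCPB+, that of Pprc1 was lost without GCEPB- replicate 1 or 2 or GCPB+ replicate 2 or 3 (adjusted p from 0.0573 to 0.151). Over all the lists, 0 genes were called between GCPB+ and GPB+.

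**Figure D5:**
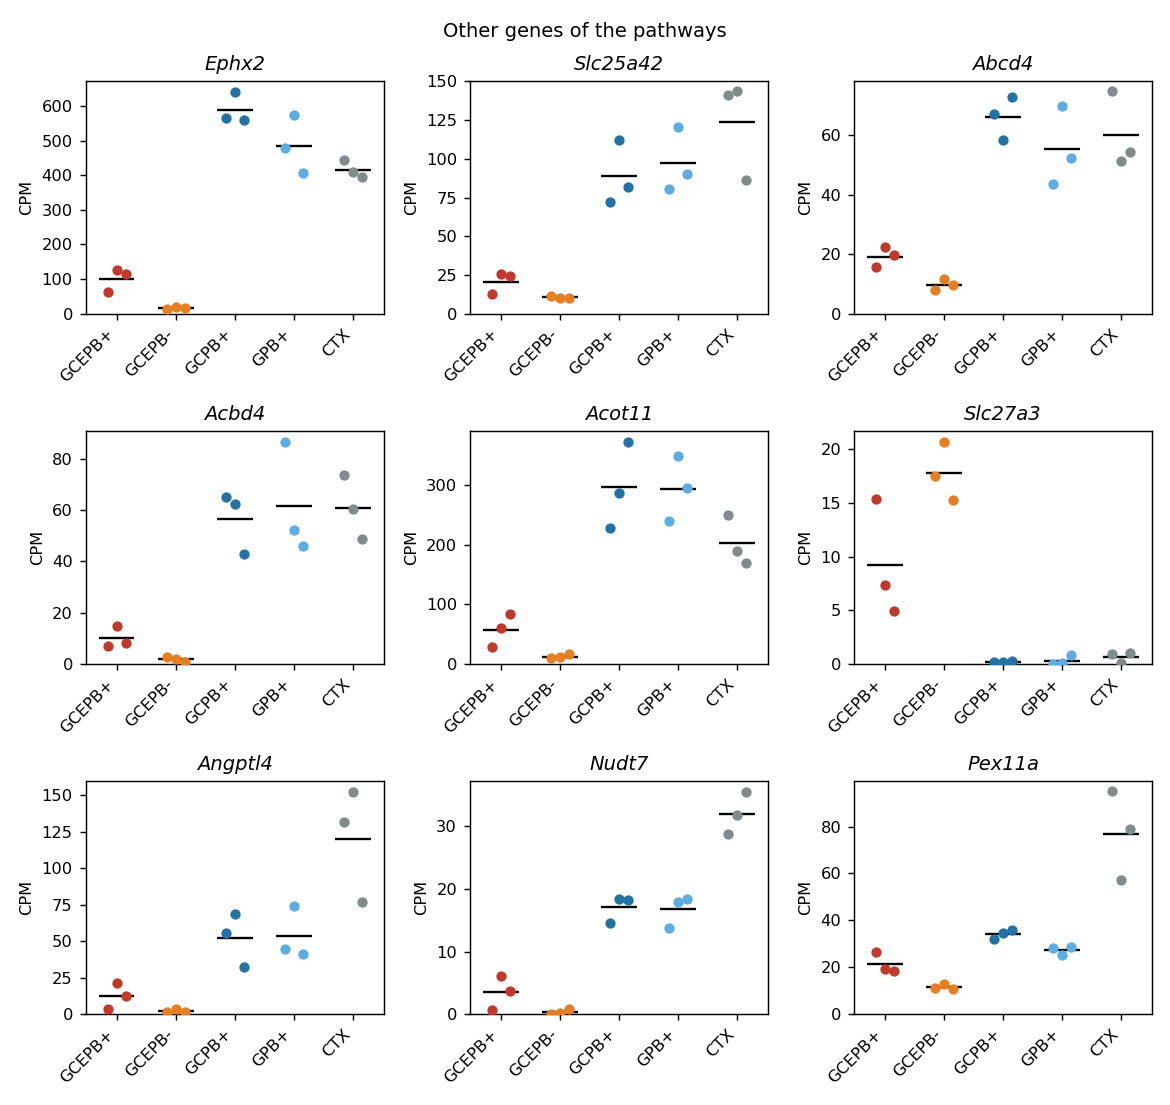
CPM of 9 other genes of the pathways in the 5 populations on linear axes from 0; points are libraries in the order of their replicate numbers and bars are group means (n = 3). Ephx2, Acbd4, Acot11 and Angptl4 are low in GCEPB+ and lower in GCEPB-, Slc27a3 is higher in both than in GCPB+, and Pex11a is lower in GPB+ than in CTX.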

How the data were processed

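Per the labels' protocols, RNA of sorted cells was amplified with an oligo(dT)-primed ultra-low-input kit, cut and tagged by transposase and read as paired ends of 100 bases; such a kit does not mark strand. Per the submitters' processing notes, cutadapt, TopHat2 2.1, Cufflinks and HTSeq were used with mm10; which tool made which file, the annotation and the treatment of multiply mapped reads are not given in the sources used here. The deposited count table holds whole numbers per symbol, not normalized, and the authors also deposited FPKM values scaled by the authors to length and library. Of 32763 count rows, 28 named no gene (0.184% to 0.323% of counts) and were left out.

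R 4.3.3 and its package edgeR 4.0.16 gave the main test (quasi-likelihood, filterByExpr, TMM factors of 0.825 to 1.22) in 1 fit of 15 libraries with 5 groups, adjusted by Benjamini-Hochberg over 16302 genes, threshold 0.05, in 5 comparisons and 1 test among the groups, and tested on simulated data. A floor of 3 counts is 0.102 to 0.246 CPM, covering counting error only. No 2 replicates agreed within sampling noise (chi-square per gene 28.6 to 112). The members and lists were chosen with earlier results of these data known. Values of every library were given for at most 6 members per comparison, called, without overlap, with a mean of at least 5 CPM in the higher group and the largest fold changes, and for further members beside them; up to 4 called genes of each other list were named per comparison, by the same measure. Older symbols were matched for 1 list gene (Mmut as Mut), and a few list genes are counted but not reported by name.

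Groups share replicate numbers 1 to 3. The deviations of libraries with 1 number correlated over 0.1 across genes in all 3 pairs of GCEPB+ and GCPB+ (0.119 to 0.177). Those of GCPB+ and GPB+ did so too (0.116 to 0.234). Libraries there may be paired, judged on the data alone, but the main test held no replicate term. The replicate block was run as an alternative. The other comparisons had lower pairs. Alternatives were RLE and upper quartile factors, DESeq2 1.42.0, limma 3.58.1 on voom-weighted counts and on log2(FPKM + 1) or log2(FPKM + 0.1), other low-count filters, the groups alone, a replicate block and leaving out each library. Promoter windows came from RefSeq (GRCm38.p6); the GC box and CCAAT motifs were added after the values were seen.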

Additional observations from a re-analysis of the deposited data

How the results depend on the processing

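No member's call changed direction in any of 1205 alternative values for the 71 calls of members; 1136 stayed past the threshold and 69 did not, 35 of these on leaving out 1 library, 30 on the FPKM scale and 4 otherwise. With a filter of 5 CPM, under which Acsl5 was not tested, 1 member was higher in GCEPB+ and 1 in GCEPB-, each against GCPB+. Between GPB+ and CTX the number called was 0 with RLE factors, no filter and both filtered FPKM fits, and 2 with DESeq2 and with voom, of which 1 was lower with DESeq2 and 2 were higher with voom; the unfiltered FPKM fit gave 0 higher and 1 lower, and leaving out 1 library gave 0 to 1. Over all settings, 20 to 29 members were called in GCEPB+ and 29 to 33 in GCEPB-, each against GCPB+, and 12 to 16 in GCEPB+ against GCEPB-, or 22 to 26, 29 to 32 and 10 to 15 on leaving out 1 library. The FPKM scale moved the median of all genes by 0.25 (GCEPB+ against GCPB+) and 0.28 (GCEPB- against GCPB+) on the log2 scale, and 18 and 27 members were lower there. Of all genes called, the higher share was then 66.5% instead of 50.2%, 61.8% instead of 49%, 66.9% instead of 83.4% (GCEPB+ against GCEPB-; 61.5% with voom) and 42.9% instead of 59.9% (GPB+ against CTX). The other pathway lists held 190 calls, and 149 to 205 under the alternatives.

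With the replicate number as a block, 28 members were called in GCEPB+ and 33 in GCEPB-, each against GCPB+, 16 in GCEPB+ against GCEPB-, 0 in GCPB+ against GPB+ and 1 in GPB+ against CTX, no count moving by over 1.5 times and no call of a member being lost. Acsl5, Ehhadh and Acsl1 fell below 0.526 CPM in some libraries, where their values rest on few reads. The part of library depth in this was not tested.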

Other observations

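Ketone bodies are made from the acetyl-CoA of fatty acid oxidation and used again as acetyl-CoA by other cells. Of 9 genes of ketone body metabolism, 4 were lower and 1 higher in GCEPB+ and 5 lower and 1 higher in GCEPB-, each against GCPB+, 1 was higher in GCEPB+ than in GCEPB-, and 3 were lower and 1 higher in GPB+ than in CTX. Over all genes the shares were 18% lower and 18.1% higher, 24.9% and 23.9%, 1.85% and 9.28%, and 2.7% and 4.04% in the same order of comparisons. Slc16a1, the monocarboxylate transporter MCT1 that carries ketone bodies and lactate, had 45.7, 30.1 and 43.0 CPM in GCEPB+ and 28.7, 32.4 and 41.5 CPM in GCEPB-, against 85.7, 76.1 and 93.6 CPM in GCPB+ (-1.10 ± 0.19, adjusted p = 0.00025, and -1.32 ± 0.19, adjusted p = 2.42e-05, edgeR). It was also lower in GPB+, with 72.6, 68.6 and 74.9 CPM, than in CTX, with 128, 128 and 140.5 CPM (-0.88 ± 0.19, adjusted p = 0.00993). Bdh1, which interconverts the 2 main ketone bodies, was lower in GCEPB+ (-0.80 ± 0.21, adjusted p = 0.0059) and GCEPB- (-1.21 ± 0.21, adjusted p = 0.000132) than in GCPB+. Aacs, the acetoacetyl-CoA synthetase of the cytosol, was lower in GCEPB+ (-0.73 ± 0.20, adjusted p = 0.00854) and GCEPB- (-1.07 ± 0.20, adjusted p = 0.000286) than in GCPB+. Acat1, the mitochondrial acetoacetyl-CoA thiolase, named after its values were seen, was higher in both (0.47 ± 0.16, adjusted p = 0.0266, and 0.55 ± 0.16, adjusted p = 0.00838). Its call in GCEPB+ was lost without GCEPB+ replicate 1 (adjusted p = 0.0665), GCPB+ replicate 1 (adjusted p = 0.125) or GCPB+ replicate 3 (adjusted p = 0.066). Aacs was also lower in GPB+ than in CTX (-0.78 ± 0.20, adjusted p = 0.0258), a call lost without any GPB+ library or CTX replicate 1 (adjusted p from 0.0548 to 0.158).

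Of the other lists, GPB+ against CTX gave 1 lower among 26 peroxisomal genes (Nudt19), 1 lower among 16 peroxins (Pex11a), 1 higher and 1 lower among 22 genes of uptake and activation (Acsm5 and Acot13), and 0 among 22 mitochondrial genes, with 4 of those at an unadjusted p under 0.05 (edgeR). Among 24 genes of transcriptional control 1 was lower and 1 higher, Rxra, a partner receptor of the PPARs (1.03 ± 0.29, adjusted p = 0.0439). Over all genes 4.04% were higher and 2.7% lower in GPB+ than in CTX. Of the genes just named, all but Pex11a lost the call on leaving out 1 library: Nudt19 without any of the 6 libraries (adjusted p from 0.0582 to 0.177), Acsm5 without GPB+ replicate 2 or any CTX library (adjusted p from 0.0666 to 0.0995), Acot13 without GPB+ replicate 2 or 3 or CTX replicate 1 or 3 (adjusted p from 0.0971 to 0.146) and Rxra without any but GPB+ replicate 3 (adjusted p from 0.056 to 0.157).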
